A study of Mus musculus with 12 samples.

Results

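The thymus of Sirt6 knockout mice was compared with wild type thymus at 29 days of age on 2 arrays, which are 2 of the 12 arrays of the series and were chosen by their tissue label. The Sirt6 protein removes acyl groups from histones in an NAD-dependent reaction, and its loss in mice leads to poor growth and early death. Each thymus array carried labelled RNA of Sirt6 knockout thymus in the red dye (Cy5) and of wild type thymus of the same age in the green dye (Cy3). The labels name no strain, sex, promoter or further allele, give no treatment, and do not say how many mice made up the wild type RNA. They number the knockout samples 1 and 2, used below as replicate 1 and replicate 2, without saying that each came from another mouse. The other groups were liver, skin and spleen at 29 days and liver and spleen at 21 days, with 2 arrays each. On these too, the labels pair Sirt6 knockout with wild type of the matching tissue and age. Per the labels, littermates were pooled for the wild type channel at 21 days.

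The thymus makes T cells. Precursors from the bone marrow multiply in its cortex, rearrange the genes of the T cell receptor with the Rag1 and Rag2 recombinase, and are selected on cortical and then medullary epithelium before they leave. Immature thymocytes are sensitive to glucocorticoids, which drive many of them into cell death. The organ lies in the chest on top of the heart, with fat and small lymph nodes close by.

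Values are given as the log2 of knockout over wild type after each array was centred on its median, so a gene with less RNA in the knockout lies below 0. They are differences, not levels, and the deposited table holds no signal, so it could not be read from the data whether a thymus marker was present at a high or low level. The number of arrays limits the precision. Knockout RNA was in the red dye throughout, so any bias of a probe towards one dye is part of its value. Limma, a linear model with a spread shared across genes, tested the thymus mean against 0 over 30806 features, of which 14631 were named genes. Nothing in the labels says that the arrays of a group came from separate mice. The p-values therefore reflect only array-to-array spread, of which an unknown part is technical, and the spread of the wild type RNA is left out. In thymus the arrays differed in Y-linked genes, as given below.

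The 2 thymus arrays differed in how far values spread. The standard deviation over probes was 0.485 on replicate 1 and 0.313 on replicate 2, and the correlation between them over 38320 probes was 0.458 (Pearson r; probes are no independent replicates). Because so few genes passed the limma test, genes were also described by a change of at least 0.58, which is 1.5-fold, in the same direction on both arrays. This description was chosen after the values were seen and is not a test. By it 113 named genes (0.772%) were lower and 51 (0.349%) were higher. On replicate 1 alone 12.5% of named genes were lower by at least 0.58 and 3.61% higher, and on replicate 2 alone 1.74% were lower and 1.01% higher.

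**Figure D1:**
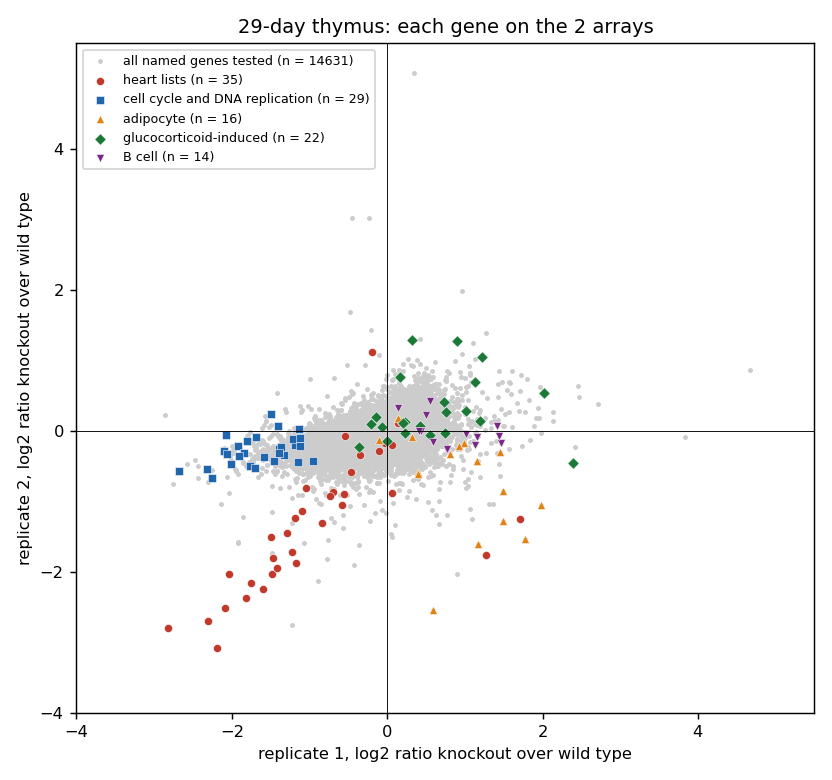
Each point is 1 of 14631 named genes in 29-day thymus, at its log2 ratio of knockout over wild type on replicate 1 (horizontal axis) and replicate 2 (vertical axis), with 5 gene lists in colour. Most heart genes lie at the lower left, below 0 on both arrays, cell cycle genes are far below 0 on replicate 1 and near 0 on replicate 2, and adipocyte genes lie above 0 on replicate 1 and below 0 on replicate 2.

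Sirt6 itself was at -0.86 on replicate 1 and -0.52 on replicate 2. Both values were below 0, but the mean of -0.69 (SE 0.39) did not pass the test (limma, adjusted p = 0.908). Each SE here and below is from the joint fit and pools the spread within all 6 groups of arrays. One of the Sirt6 probes gave -0.39 and -0.27 and the other -1.32 and -0.77 on the thymus arrays. The position of the probes relative to the deletion was not known here, so these values check the labels only in part. The Y-linked genes Eif2s3y, a translation factor subunit, and Kdm5d, a histone demethylase, set the arrays apart. Eif2s3y was at 0.34 on replicate 1 and 5.08 on replicate 2, and Kdm5d at -0.45 and 3.03. Both were near or below the wild type on replicate 1 and far above it on replicate 2, and the part of this difference in the results below was not tested.

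Genes of heart muscle were lower in knockout thymus than in wild type thymus on both arrays, and the genes that passed the limma test were of this kind. The test called 4 genes lower (0.013% of features) and 0 higher, with 1607 features at an unadjusted p under 0.05. The 4 were Mb, Myl4, Ckmt2 and Corin, each measured by 1 probe. Corin was in no list and was named because it passed. Of 35 measured genes in the lists of cardiac sarcomere and of heart peptides, calcium handling and energy, 22 were lower by at least 0.58 on both arrays, against 0.772% of named genes, and 28 were below 0 on both, against 41%. An unadjusted p under 0.05 (limma) was found for 12 of the 16 sarcomere genes and 11 of the 19 other heart genes, against 4.89% of named genes. The 22 were part of the 113 named genes that met this description. The lists were chosen with earlier results of these data known, so these shares describe the lists and are no independent support. In whole tissue, fewer cells of a type and less RNA per cell cannot be told apart. Whether the RNA of the heart genes came from within the thymus or from tissue beside it was not tested.

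Mb encodes myoglobin, the oxygen-binding protein of heart and red muscle. It was at -2.82 on replicate 1 and -2.80 on replicate 2, a mean 7.02-fold lower level in the knockout (mean -2.81, SE 0.22, limma adjusted p = 0.00661). The values of the arrays were almost the same. How the wild type RNA of these arrays was made up is not known, so the arrays may not be independent. Myl4, the myosin light chain of the atrium, was at -2.09 and -2.51, a 4.92-fold lower level (mean -2.30, SE 0.18, limma adjusted p = 0.0109). Ckmt2, the mitochondrial creatine kinase of muscle, was at -1.75 and -2.15, a 3.87-fold lower level (mean -1.95, SE 0.20, limma adjusted p = 0.0481). Corin, the heart protease that activates atrial natriuretic peptide, was at -1.48 and -1.73, a 3.04-fold lower level (mean -1.61, SE 0.18, limma adjusted p = 0.0481). Each of the 4 was below 0 on both arrays, with the lower value on replicate 2 for all but Mb.

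These calls depended on which arrays entered the fit. Without thymus replicate 1 the test called 0 features, and without thymus replicate 2 it called 2, both higher and neither among the 4. Without any 1 of the 29-day liver or skin arrays it called 1, and without either 21-day spleen array it called 13, including all 4. In a fit to the 8 arrays at 29 days alone, 24 features were called, 21 of them lower, again including all 4. Of the 17 named genes among the 24, 13 were in the heart lists, which hold 35 of the 14631 named genes tested. As the lists were chosen with earlier results of these data known, this count is a description.

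The fifth gene by p-value was Myl7, the regulatory myosin light chain of the atrium, at -2.19 and -3.09 (mean -2.64, SE 0.31, limma adjusted p = 0.0598). Other parts of the contractile apparatus had values of the same order without passing the test. Actc1, the actin of heart muscle, was at -2.04 on replicate 1 and -2.03 on replicate 2. Myh6, the fast cardiac myosin heavy chain, was at -1.60 and -2.24. The troponin genes Tnni3 (-1.47 and -1.81), Tnnt2 (-1.23 and -1.72) and Tnnc1 (-1.19 and -1.24), which make thin filaments respond to calcium, were lower on both arrays. Their adjusted p-values ran from 0.0747 for Actc1 to 0.242 for Tnnc1. Over the 16 measured genes of the cardiac sarcomere list the median was -1.26 on replicate 1 and -1.58 on replicate 2, against -0.04 and -0.03 over all named genes.

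Genes of calcium handling and of the stressed heart were lower as well. Atp2a2, the calcium pump that refills the sarcoplasmic reticulum, was at -1.81 and -2.38 (limma adjusted p = 0.0747). Its inhibitor Pln was at -0.84 and -1.30 and the calcium store protein Casq2 at -1.10 and -1.14. Nppb, which encodes a natriuretic peptide, was at -1.50 and -1.51, and Ankrd1, a stress-responsive ankyrin repeat protein of heart muscle, at -2.30 and -2.70. Ankrd1 had a large standard error in the joint fit (0.61, limma adjusted p = 0.817). Over the 19 measured genes of this list the median was -0.70 on replicate 1 and -1.14 on replicate 2.

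Not every heart gene was lower. Myl2, the myosin light chain of the ventricle, was at -0.20 and 1.12, and its partner Myl3 at -0.54 and -0.08. The Z-disc gene Ldb3 (0.14 and 0.11) and the M-band gene Myom1 (0.17 and 0.12) were slightly above 0 on both arrays. Cox8b and Fabp3, a respiratory chain subunit and a fatty acid binding protein that brown fat also expresses, went opposite ways, at 1.27 and 1.70 on replicate 1 and -1.76 and -1.25 on replicate 2. Genes of fast skeletal muscle did not share the difference, since 0 of 14 were lower by at least 0.58 on both arrays and their median was 0.01.

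The promoter letters of atrial and cardiac genes are shown because the CArG box, the binding motif of serum response factor, is a known element of muscle promoters. The sequences are the 250 bases before the annotated start, 5′ to 3′ on the gene's strand, from RefSeq with build GRCm38.p6, and capitals mark a CArG box. Myl7 lies on chr11:5898783-5899032 (minus strand), with a box that begins 61 bases before the start. Actc1 lies on chr2:114052876-114053125 (minus strand), with a box that begins 47 bases before the start. Myl4 lies on chr11:104550413-104550662 (plus strand) and holds no match in this window.
Myl7: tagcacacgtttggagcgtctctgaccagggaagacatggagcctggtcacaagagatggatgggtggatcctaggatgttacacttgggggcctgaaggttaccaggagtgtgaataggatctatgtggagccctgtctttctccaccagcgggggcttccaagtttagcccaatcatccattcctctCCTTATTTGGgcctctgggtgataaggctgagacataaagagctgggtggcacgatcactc
Actc1: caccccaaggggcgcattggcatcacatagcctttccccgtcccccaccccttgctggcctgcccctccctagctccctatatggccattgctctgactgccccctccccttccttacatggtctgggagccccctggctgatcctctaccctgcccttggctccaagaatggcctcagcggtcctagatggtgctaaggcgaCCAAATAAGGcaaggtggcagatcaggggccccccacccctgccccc
Myl4: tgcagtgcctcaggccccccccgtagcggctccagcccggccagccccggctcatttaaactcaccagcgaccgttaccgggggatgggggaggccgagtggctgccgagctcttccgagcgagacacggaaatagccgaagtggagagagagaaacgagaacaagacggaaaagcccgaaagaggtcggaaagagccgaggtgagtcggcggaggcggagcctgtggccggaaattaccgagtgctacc

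Searched on both strands, the CArG box was found in 5 of 14 cardiac sarcomere genes with a promoter in the table. It was found in 0 of 15 genes of the other heart list and in 439 of all 27025 genes (1.62%). The 5 genes were Actc1, Myl7, Myl3, Ldb3 and Myom1. Actc1 and Myl7 were among the lowest genes on both arrays, whereas Myl3, Ldb3 and Myom1 were not lower by 0.58 on both, so genes with a box lay at both ends of the list. A match is a description of these letters and not evidence of binding.

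The difference in heart genes was set against the other tissues of the same age. The limma contrast of thymus minus the mean of liver, skin and spleen called 3 features lower (0.00979% of 30641) and 0 higher, with 785 at an unadjusted p under 0.05. Mb lay 2.69 lower on the log2 scale in thymus (contrast -2.69, SE 0.25, limma adjusted p = 0.0335), with means of 0.01 in liver, -0.29 in skin and -0.06 in spleen. Myl4 had a contrast of -2.24 (SE 0.21, limma adjusted p = 0.0414). Myoz2, a Z-disc protein of heart and slow muscle, was at -1.06 and -1.59 in thymus and had a contrast of -1.87 (SE 0.20, limma adjusted p = 0.0428). Its mean in skin was 1.30, so the skin arrays were part of that difference. In all 3 genes both thymus values lay below all 6 values of the other tissues. Corin (-1.69) and Ckmt2 (-1.89) came next by p-value, with an adjusted p of 0.094 each in this contrast (limma).

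The same order held for most of the heart genes. For 26 of the 35 measured genes of the heart lists, both thymus values lay below all 6 values from liver, skin and spleen, which was the case for 3.42% of named genes. As the lists were chosen with earlier results of these data known, this share is a description and not a test. The median of the cardiac sarcomere list was -0.04 and 0.04 on the liver arrays, 0.28 and 0.59 on the skin arrays and -0.12 and 0.19 on the spleen arrays. Without either thymus array, or without either 29-day liver or spleen array or either 21-day liver array, the contrast called 0 features. Without either 29-day skin array it called 1, and without either 21-day spleen array it called 10, including these 3.

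Spleen is the other lymphoid organ of the set. Thymus minus spleen called 0 (0%) of 30723 features by limma, with a lowest adjusted p of 0.172 and 634 features at an unadjusted p under 0.05. The genes of smallest p were Mb (contrast -2.75), Ckmt2 (-2.13), Corin (-1.68), Myl7 (-2.89) and Myoz2 (-1.60), all heart or muscle genes and all lower in thymus. Without replicate 1 of 29-day spleen the contrast called 16 features, all higher in thymus.

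**Figure D2:**
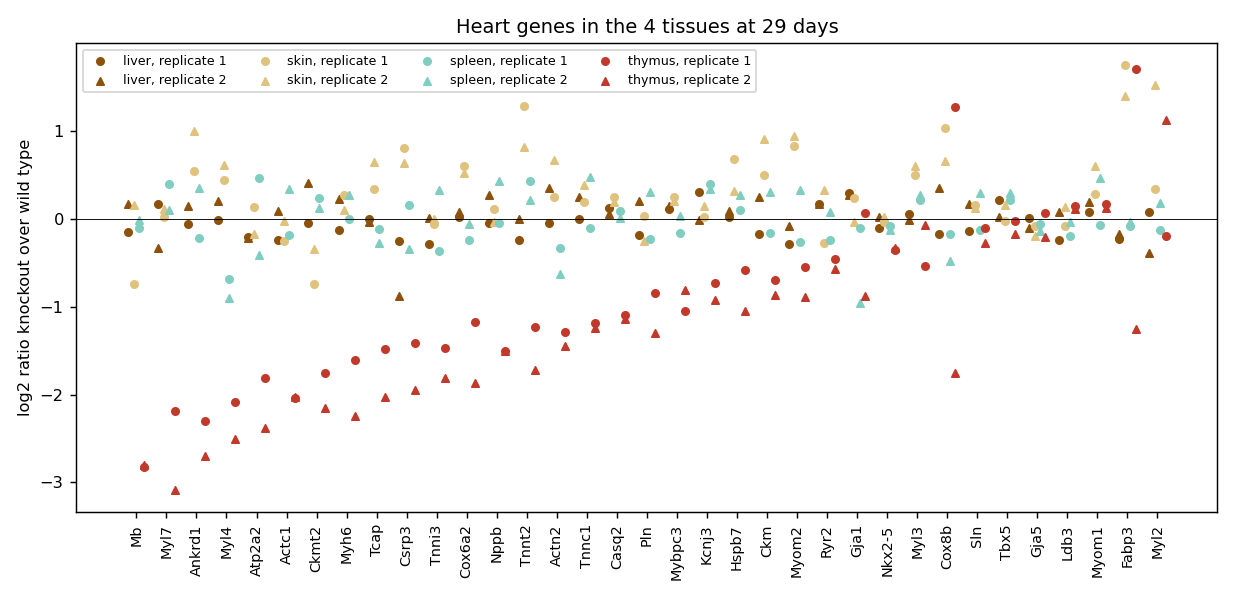
The log2 ratio of knockout over wild type (vertical axis) is shown for the 35 measured genes of the heart lists (horizontal axis, ordered by their thymus mean) on each of the 8 arrays at 29 days, with circles for replicate 1 and triangles for replicate 2. For the genes on the left, from Mb at -2.82 and -2.80 onward, both thymus points lie below every point of liver, skin and spleen, while on the right thymus points lie among the others or, for Cox8b and Fabp3, at opposite ends.

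Genes of DNA replication and mitosis were far lower on replicate 1 than on replicate 2, and 0 of the 29 measured passed the test. All 29 were lower by at least 0.58 on replicate 1, where 12.5% of named genes were, and 1 was on replicate 2, where 1.74% of named genes were. The median was -1.58 on replicate 1 and -0.31 on replicate 2, and 26 were below 0 on both arrays against 41% of named genes. Many thymocytes of a young mouse are dividing.

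Ccne2, a cyclin that starts DNA synthesis, was at -2.67 on replicate 1 and -0.57 on replicate 2. Cdc6 and Cdc45, which load and start the replicative helicase, were at -2.25 and -2.31 on replicate 1 and at -0.67 and -0.55 on replicate 2. The helicase subunits Mcm6 (-1.91 and -0.36) and Mcm7 (-2.02 and -0.47) showed the same gap. Cdc6 alone of the 29 was lower by at least 0.58 on both arrays. Cdk1, the kinase that drives mitosis, was at -1.32 and -0.34, and the spindle gene Bub1b at -1.49 and 0.23. The probes of Cdk1 disagreed in size, with -2.46 and -0.50 for one and -0.19 and -0.18 for the other. The standard errors pool the spread within all 6 groups of arrays, not that of thymus alone. No adjusted p in this list was below 0.908 (limma).

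Core histone genes, transcribed in S phase, followed with medians of -0.94 on replicate 1 and -0.25 on replicate 2, and 7 of 11 were below 0 on both arrays. Of 24 DNA repair genes, 17 were below 0 on both arrays, with medians of -0.57 and -0.15. Of all named genes, 41% were below 0 on both. Lig4, the ligase that seals broken ends in T cell receptor gene rearrangement, was at -1.33 and -0.58, and Lig1, the ligase of DNA replication, at -1.72 and -0.38. None of the genes of these lists passed the test.

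The cell cycle list was not lower in liver, at medians of 0.05 and 0.04, and was at -0.12 on both skin arrays. In spleen the arrays stood apart, at 0.41 on replicate 1 and -1.73 on replicate 2. Cdc6 had a contrast of -1.17 to the other 3 tissues (SE 0.66, limma adjusted p = 1), so a difference particular to thymus was not shown.

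The promoters of Cdc6 and Mcm6 are shown because E2F, the factor that switches on S phase genes, binds letters of the kind marked. They are the 250 bases before the start, from RefSeq with build GRCm38.p6, with the searched letters TTTCCCGC, TTTGGCGC and TTTCGCGC, on either strand, in capitals. Cdc6 lies on chr11:98907901-98908150 (plus strand), with a match that begins 138 bases before the start. Mcm6 lies on chr1:128359706-128359955 (minus strand), with 3 matches, of which the first overlaps the next in one run of capitals.
Cdc6: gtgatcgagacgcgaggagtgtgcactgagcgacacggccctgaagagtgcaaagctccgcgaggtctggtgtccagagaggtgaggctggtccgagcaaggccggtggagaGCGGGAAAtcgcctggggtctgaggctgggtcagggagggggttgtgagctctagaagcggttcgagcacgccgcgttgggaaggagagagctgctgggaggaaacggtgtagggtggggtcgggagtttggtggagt
Mcm6: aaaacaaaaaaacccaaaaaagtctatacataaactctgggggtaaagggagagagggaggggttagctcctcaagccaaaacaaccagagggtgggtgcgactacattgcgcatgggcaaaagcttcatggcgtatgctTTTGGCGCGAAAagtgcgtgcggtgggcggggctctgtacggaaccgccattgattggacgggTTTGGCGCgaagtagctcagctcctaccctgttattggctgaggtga

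These letters occurred in 480 of all 27025 genes with a promoter in the table (1.78%). They occurred in 5 of the 24 such cell cycle genes, namely Cdk1, Mcm5, Mcm6, Mcm7 and Cdc6. They occurred in 0 of 14 cardiac sarcomere genes and 0 of 15 genes of the other heart list. A gene without a match, Cdc45, had values as low as those with one.

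Genes of immature thymocytes were modestly lower on replicate 1 and close to the wild type on replicate 2, and none of 26 passed the test. Their median was -0.53 on replicate 1 and -0.04 on replicate 2, and 16 were below 0 on both arrays, against 41% of named genes. Dntt, which adds bases at receptor gene joints, was at -1.27 and -0.04. Ptcra, the alpha chain of the pre-T cell receptor, was at -1.19 and -0.04. Tcf12, a transcription factor that acts at the same stage, was at -1.63 and -0.62 and was the 1 gene of the list lower by at least 0.58 on both arrays. Its 2 probes agreed in direction, at -1.52 and -1.73 on replicate 1 and -0.44 and -0.80 on replicate 2.

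The recombinase genes went different ways. Rag1 was at 0.08 and 0.61 and Rag2 at -0.45 and -0.17. The coreceptor gene Cd4 was at -0.14 and -0.02 and Cd8b1 at -0.53 and 0.04. None of these values was far from 0 on both arrays, and their adjusted p-values ran from 0.908 for Rag1 to 0.989 for Cd4 (limma). Notch1, the receptor that commits precursors to the T lineage, was at -0.50 and -0.45, and Dtx1, a Notch target, at -0.41 and -0.74. Cd8a, Tcf7 and Lck carried no named probe here and were not analysed.

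Of 18 genes of the T cell receptor and its signalling, 11 were below 0 on both arrays, against 41% of named genes, and 0 passed the test. The median was -0.61 on replicate 1 and -0.10 on replicate 2. Of the 18, 17 had the lower value on replicate 1, as did 8623 of 14631 named genes. Cd3e, a signalling chain of the receptor, was at -0.78 and -0.26, and Trat1, an adaptor bound to it, at -1.23 and -0.14. Cd3d (-0.08 and 0.16), Thy1 (-0.06 and 0.18) and Cd5 (0.14 and 0.34) were close to the wild type or above it. Of the 21 genes of mature T cells, Lef1 was lower by at least 0.58 on both arrays, at -0.67 and -0.73 (mean -0.70, SE 0.16, limma adjusted p = 0.746). Lef1 is a transcription factor of thymocytes and naive T cells, and its 3 probes gave values between -0.49 and -0.90. Gata3, which directs CD4 lineage choice, was at -0.72 and -0.51, and the median of the list was -0.07 on replicate 1 and -0.19 on replicate 2.

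The epithelium that supports thymocytes differed little. The median of 18 cortical genes was -0.22 on replicate 1 and 0.03 on replicate 2, and its sign over both arrays turned with the centring. Psmb11, the thymus-specific proteasome subunit, was at -0.43 and -0.08, and Ccl25, a chemokine that draws precursors in, at -0.81 and 0.10. Dll4, the Notch ligand of the cortex, was at -0.41 and -0.48. The median of 14 medullary genes was 0.09 and 0.05, and Aire, which lets the medulla display proteins of other organs, was at -0.55 and -0.16. None of these genes passed the test or was lower by at least 0.58 on both arrays.

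**Figure D3:**
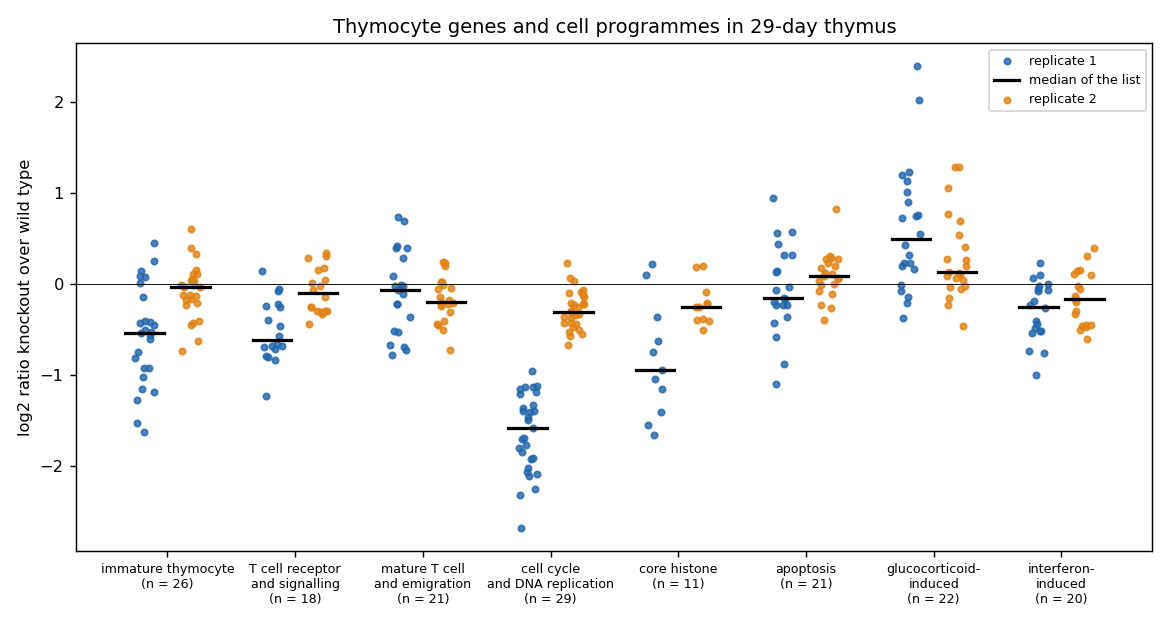
Each point is 1 gene of 8 lists (horizontal axis, with the number of measured genes) at its log2 ratio of knockout over wild type (vertical axis), in blue for replicate 1 and orange for replicate 2, and black bars are medians. The cell cycle list has medians of -1.58 and -0.31, and the glucocorticoid list, at 0.49 and 0.13, is the one shown with both medians above 0.

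Glucocorticoid-induced genes were mostly above 0 in knockout thymus, and none of 22 passed the test. Their median was 0.49 on replicate 1 and 0.13 on replicate 2, and 13 were above 0 on both arrays against 31.5% of named genes. Of 1015 olfactory, vomeronasal and taste receptor genes, 639 were above 0 on both, with a median of 0.15 on each array. Values above 0 on both arrays were thus not particular to glucocorticoid-induced genes. Of the 22, 3 were higher by at least 0.58 on both arrays, against 0.349% of named genes. Txnip, a thioredoxin inhibitor that restrains glucose uptake, was at 1.23 and 1.05 (mean 1.14, SE 0.25, limma adjusted p = 0.687). Ddit4, an inhibitor of mTORC1, was at 0.90 and 1.28, and Sult1a1, a sulfotransferase, at 1.14 and 0.70.

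Other members were high on 1 array. Fkbp5, which tempers the hormone's receptor, had values of 0.32 and 1.28, and Tsc22d3, which encodes GILZ, at 0.17 and 0.77, both higher on replicate 2. Mt1, a metallothionein, was at 2.02 and 0.54, and Pdk4, a kinase that spares glucose in fasting, at 2.39 and -0.46, both higher on replicate 1. Sgk1 (-0.01 and -0.15) and Per1 (0.23 and -0.03), which also respond to the hormone, were near 0. The medians of this list in the other tissues were 0.31 and 0.29 in liver, 0.95 and 0.65 in skin and 0.59 and 0.05 in spleen. They were above 0 on all 8 arrays at 29 days.

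Of 21 apoptosis genes, Bmf was higher by at least 0.58 on both arrays, at 0.94 and 0.83 (mean 0.89, SE 0.33, limma adjusted p = 0.908). Bmf is a BH3-only protein that promotes cell death. Bcl2l11, which encodes Bim, the main killer of thymocytes in negative selection, was at -0.43 and 0.31, and Bbc3, which encodes Puma, at 0.32 and 0.23. The survival gene Bcl2l1 was at -0.88 and -0.23 and the caspase activator Apaf1 at -1.09 and -0.39. In the list as a whole, 5 genes were below 0 and 7 above 0 on both arrays, against 41% and 31.5% of named genes. Targets of p53 had medians of -0.19 and -0.06, with Mdm2, the ligase that degrades p53, at -1.19 and -0.34 and Cdkn1a, the cell cycle inhibitor p21, at 0.56 and -0.06.

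Sirt6 has been described as a brake on NF-kB, and 22 of its target genes were measured. They had medians of -0.04 on both arrays. Of these genes, 9 were below 0 and 8 above 0 on both, against 41% and 31.5% of named genes. None was lower or higher by at least 0.58 on both arrays or passed the test. Of 20 interferon-induced genes, 13 were below 0 on both arrays, against 41% of named genes, with medians of -0.25 and -0.16. None of the 20 passed the test or was lower by at least 0.58 on both arrays. The antiviral gene Ifit1 was at -0.48 and -0.60, and the chemokine gene Cxcl10 at -0.52 and -0.45.

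Some genes of fatty acid synthesis were lower on both arrays without passing the test. Scd1, which puts a double bond into fatty acids, was at -1.22 and -2.75 (mean -1.99, SE 0.43, limma adjusted p = 0.686). Fasn, fatty acid synthase, was at -1.92 and -1.59 (mean -1.76, SE 0.23, limma adjusted p = 0.101). Srebf1, the transcription factor that drives both, was at -0.62 and -0.64. These were the 3 of 15 lipogenic genes lower by at least 0.58 on both arrays, and Acacb (0.30 and -0.27) and Gpam (0.09 and -0.02) were not lower. Adipocyte genes, given below, had opposite signs on the arrays, whereas these 3 genes were lower on both, and the part of fat cells in these values was not tested.

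In cholesterol synthesis, 14 of 18 genes were below 0 on both arrays, against 41% of named genes, and none passed the test. Idi1, which makes the second isoprene building block, was at -2.03 and -0.89, and Hsd17b7, a late enzyme of the pathway, at -0.96 and -0.85. They were the 2 genes of the list lower by at least 0.58 on both arrays. Sqle (-1.08 and -0.40) and Cyp51 (-0.95 and -0.52) were lower mainly on replicate 1, and Fdft1 was above 0 on both (0.21 and 0.26). The medians were -0.50 and -0.27 in thymus, -1.08 and -1.15 in liver, -0.32 and -0.34 in skin and -0.10 and -0.75 in spleen. The values in thymus were thus closer to 0 than in liver, a difference that was not tested for the list.

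Igf1, a growth factor that is low in the blood of these mice, was at -0.68 and -0.50 in thymus, with means of -1.06 in liver, -1.17 in skin and -0.53 in spleen. It did not pass the test in thymus (limma adjusted p = 0.908). Genes of the cytosolic ribosome lay close to 0, with medians of -0.19 and 0.13, and their median over both arrays changed sign with the centring and the scaling.

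Markers of B cells, lymph node, airway and fat cells differed between the arrays, and none of them passed the test. Whether their RNA came from within the thymus or from tissue beside it was not tested. On replicate 1, B cell, lymph node, airway and fat cell genes had medians above 0. On replicate 2 the medians were -0.06 for B cell, 0.01 for lymph node, 0.15 for airway and -0.51 for fat cell genes. Of the 11 airway and lung genes, 9 were above 0 on both arrays, against 31.5% of named genes. Of 14 B cell genes, 9 were higher by at least 0.58 on replicate 1, against 3.61% of named genes, and 0 on replicate 2, against 1.01%. Cd79a and Cd79b, the signalling chains of the B cell receptor, were at 1.41 and 1.46 on replicate 1 and at 0.07 and -0.18 on replicate 2.

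Among 8 genes of lymph node stroma, Glycam1, a mucin of the vessels through which lymphocytes enter lymph nodes, was at 3.84 on replicate 1 and -0.09 on replicate 2. Cxcl13, the chemokine of B cell follicles, was at 2.14 and 0.27. Of the 11 airway and lung genes, Scgb3a1, a secretoglobin of airway epithelium, was at 2.45 and 0.64, and Bpifa1, a secreted airway protein, at 2.42 and -0.23. The surfactant gene Sftpc, the marker of alveolar cells, was near 0 on both arrays, at 0.17 and 0.24.

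Adipocyte genes were split by array. Of 16, 11 were higher by at least 0.58 on replicate 1, against 3.61% of named genes, and 8 were lower by at least 0.58 on replicate 2, against 1.74%. Their medians were 0.96 and -0.51. Fabp4, the fatty acid binding protein of fat cells, was at 1.99 and -1.05, and Adipoq, which encodes adiponectin, at 1.49 and -0.85. Ucp1, the uncoupling protein of brown fat, was at 0.59 and -2.54, and Cidea, another brown fat gene, at 1.17 and -1.61. Of 29 named genes (0.198%) that were higher by at least 0.58 on replicate 1 and lower by at least 0.58 on replicate 2, 6 were in this list. The reverse was seen for 2 named genes (0.0137%).

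Connective tissue and vessel genes shared a smaller split. The median of 20 fibroblast and matrix genes was 0.43 on replicate 1 and -0.26 on replicate 2, and its sign over both arrays turned under quantile normalization. The median of 16 endothelial genes was 0.52 and -0.19. All 16 had the higher value on replicate 1, as did 5991 of 14631 named genes. The lower cell cycle and thymocyte values on replicate 1 stood beside these higher values for other cell types, whose part in them was not tested. Of the 35 heart genes, 28 were below 0 on both arrays, while Cox8b and Fabp3 had the same split between arrays as the fat cell genes.

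**Figure D4:**
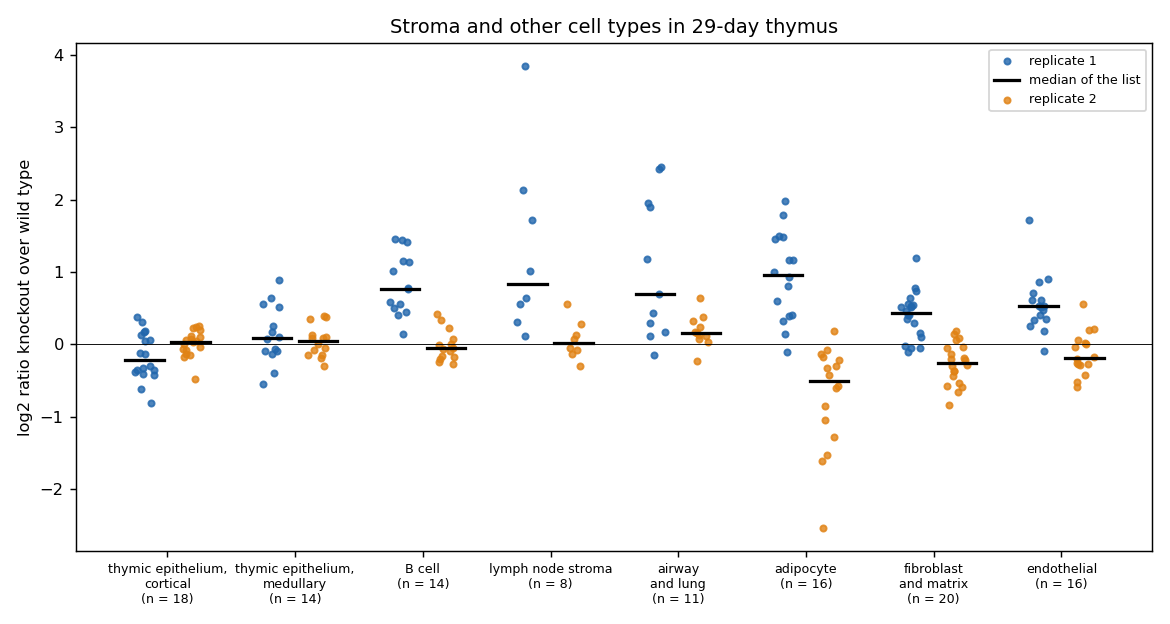
Each point is 1 gene of 8 lists of stroma and other cell types (horizontal axis, with the number of measured genes) at its log2 ratio of knockout over wild type (vertical axis), in blue for replicate 1 and orange for replicate 2, with medians as black bars. B cell, lymph node, airway and adipocyte genes lie mostly above 0 on replicate 1. On replicate 2 the adipocyte list has a median of -0.51, while the other 3 have medians of -0.06, 0.01 and 0.15.

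Myeloid cells showed few differences that both arrays shared. For comparison with the counts below, 41% of named genes were below 0 and 31.5% above 0 on both arrays. The median of 16 macrophage genes was 0.34 on replicate 1 and 0.11 on replicate 2. Mrc1, the mannose receptor, was at 1.03 and 0.63, the 1 macrophage gene higher by at least 0.58 on both arrays, and Marco, a scavenger receptor, was at 1.96 and 0.19. Of 8 mast cell and eosinophil genes, 4 were below 0 and 3 above 0 on both arrays, with a median of -0.09. Prg2 and Epx, granule proteins of eosinophils, were at -1.86 and -0.96 on replicate 1 and -1.22 and -0.56 on replicate 2, so both were lower on both arrays. Neither passed the test (limma adjusted p = 0.789 for Prg2 and 0.908 for Epx). Of 7 platelet genes, 3 were above 0 on both arrays, with medians of 0.45 and 0.05, and the chemokine gene Pf4 was highest at 1.42 and 0.67. Of 13 natural killer and cytotoxic genes, 3 were below 0 and 7 above 0 on both arrays, with a median of 0.09, and the granule gene Gzmb was at 1.01 and 0.62.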

How the data were processed

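RNA of knockout and wild type tissue was labelled in different dyes and hybridised to the same array. The labels' protocols name TRIzol for extracting the knockout RNA, and 15 µg of amplified RNA was labelled for the thymus array of replicate 2. The authors deposited log2 ratios for 38784 probes on 12 arrays; base 2 was inferred from the values, and the normalization behind them is not stated in the labels. The ratio runs knockout over wild type by the dyes in the labels. The table held 0 other columns of values per sample. It lacked 404 values on thymus replicate 1 and 375 on replicate 2, and a missing value was left missing.

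Each array was centred on its median (0.09 and 0.02 for thymus) and probes that shared a gene symbol were averaged, which made 31234 features from 22204 probes with 1 gene symbol in the platform annotation and 16580 without. Gene names were updated to the table of assembly GRCm38.p6. A joint limma fit (version 3.58.1, R 4.3.3) took all 12 arrays with a mean for each of 6 groups; up to 6 residual degrees of freedom were left, and the prior added 3.58. It tested the thymus mean against 0, thymus minus the mean of the other 29-day tissues and thymus minus spleen, two-sided. P-values were adjusted by Benjamini-Hochberg across all tested features, and 0.05 was the threshold. Testing required values on both thymus arrays and on the 2 arrays of 2 or more other groups. The steps were tested on simulated data.

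The genes and lists were chosen with earlier results of these data known. Named genes were Sirt6, Y-linked genes as a check, genes called in a contrast, the 5 genes with the lowest p in a contrast with under 5 calls, and list members, mainly those of largest mean. Alternatives were other centring, scaling and normalization, the 29-day or thymus arrays alone, a replicate block, each probe alone, other filters, robust eBayes, a minimum change, array weights, a looser threshold of 0.1 and dropping each array in turn. The description by 0.58 on both arrays was added after seeing the data.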

Additional observations from a re-analysis of the deposited data

Results flagged for a closer look

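For 3 genes the difference between knockout and wild type in thymus was unlike that in the other tissues of the same age, by limma's test of the difference itself over all features. Thymus minus the mean of liver, skin and spleen was -2.69 for Mb (adjusted p = 0.0335), -2.24 for Myl4 (adjusted p = 0.0414) and -1.87 for Myoz2 (adjusted p = 0.0428). All 3 are muscle genes, and both thymus arrays lay below the 6 other arrays in each. Groups of 2 arrays are too small for a test of single arrays that lie apart.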

How the results depend on the processing

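Counts of called features depended on the processing. For thymus against 0, where 4 were called, centring on ribosomal protein and respiratory chain genes gave 0, scaling to one median absolute deviation 28 (5 higher), quantile normalization 57 (11 higher), the 8 arrays at 29 days alone 24 (3 higher), each probe alone 2, features with all 12 values 1, a minimum log2 change of 0.58 gave 1, array quality weights 204 (63 higher), an adjusted p of 0.1 gave 12, and the 2 thymus arrays alone 0. Without centring 4 were called, 2 of them shared, and robust eBayes called the same 4. Leaving out 1 array gave 0 to 13, where a lone thymus array was assumed to vary like the other groups. For thymus against the other tissues, where 3 were called, the same settings gave 0 without centring, 0 with ribosomal and respiratory centring, 27 with scaling, 23 with quantile normalization, 12 at 29 days alone, 0 with each probe alone, 1 with all values, 0 with the minimum change, 46 with weights and 8 at 0.1, and leaving out 1 array gave 0 to 10. For thymus against spleen, quantile normalization called 4 and leaving out 1 array 0 to 16, against 0. The cause of these moves was not tested.

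Replicate numbers 1 and 2 are shared by the 29-day tissues. The differences between replicates correlated at -0.01 for thymus and liver, 0.03 for thymus and skin and -0.21 for thymus and spleen, and at 0.01 for liver and skin, 0.41 for liver and spleen and 0.22 for skin and spleen. Since not every pair exceeded 0.1, the numbers were not taken to pair the samples. With a replicate block over the 8 arrays at 29 days, 11 features were called in thymus, 5 against the other tissues and 0 against spleen.

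Mb passed in 20 of 24 alternatives, between -4.43 and -2.76, Myl4 in 14 of 23, Ckmt2 in 11 of 23 and Corin in 10 of 24. Each of these genes stayed lower in the knockout in every alternative counted here. The rest of the 25 genes followed were not called in the main fit, so they had no called direction to reverse. Ucp1, among them, ranged from -2.54 without thymus replicate 1 to 0.59 without thymus replicate 2. The number of arrays, the missing dye swap and the absence of signal values limit all of this.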

Other observations

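Among genes outside the lists that met the description by 0.58 on both arrays, chosen after their values were seen, Agt, the precursor of angiotensin, was at 1.10 and 1.25. C4b, a complement protein, was at 1.44 and 0.84, and Apoc1, an apolipoprotein, at 1.60 and 0.84. Slc25a31, a mitochondrial ADP/ATP carrier of germ cells, was at 0.96 and 1.98, and Xlr3c, an X-linked gene, at 1.27 and 1.39. None passed the test, with limma adjusted p-values from 0.829 to 0.908 for these genes apart from 0.593 for Agt.

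Of the 51 named genes higher on both arrays, 9 were olfactory, vomeronasal or taste receptor genes. These families hold 1015 of the 14631 named genes tested. Vmn1r215, a vomeronasal receptor gene, was at 4.67 and 0.86. The 1015 receptor genes had medians of 0.15 on each array, and 0 of the 113 genes lower on both were among them.

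Among genes lower on both arrays and outside the lists, Serpinb3a, a serine and cysteine protease inhibitor, was at -1.92 and -1.58 and Lypd1 at -2.14 and -1.04. Reg3b, a secreted lectin, was at -0.86 and -1.04, and Srm, which makes spermidine, at -1.23 and -0.95. None of the 4 passed the test. Krt10, a keratin of upper epidermis and of Hassall's corpuscles in the thymic medulla in humans, was at -0.91 and -0.97 (limma adjusted p = 0.242), the 1 gene of the epidermis and hair list lower by at least 0.58 on both arrays.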
